A study of Mus musculus with 24 samples.

Results

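The elements described here are 20 repeat elements of the ERVK family of endogenous retroviruses, measured by RNA sequencing of mouse embryonic fibroblasts (MEFs) lacking 1 or more of the H3K9 lysine methyltransferases (KMT). They are every repeat element of the count table whose family is ERVK and whose name starts with MMERVK, RLTR10, ETnERV, MMETn or RLTRETN. They make up 20 of 1445 repeat elements in the table, and the other ERVK elements number 256. Of the 20, 9 are internal regions, the part of a provirus between its ends, and 11 are long terminal repeats (LTRs). The rule uses names and no measured values, but it was set with earlier results of these data known. A count is a sum over all genomic copies of an element, so it has no single genomic position, and reads that map to several related copies were shared among them. Related elements therefore share reads and are not independent of each other.

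The study asked what each KMT contributes to silencing, by removing the 6 enzymes Eset1 (Setdb1), Eset2 (Setdb2), Suv39h1, Suv39h2, G9a (Ehmt2) and Glp (Ehmt1) step by step in one line of MEFs. The 24 libraries fall into 8 conditions of 3 libraries. WT is a conditional Eset1 clone that carries a tamoxifen-inducible Cre recombinase and was grown without 4-hydroxytamoxifen (4-OHT). E1 is the same clone after 1 µM 4-OHT, in which Cre removes floxed exons of Eset1. E1 S1S2 (clone B1) has frameshift mutations in Suv39h1 and Suv39h2 as well, and 6KO1 (clone B1A6) was made from it by mutating Eset2, G9a and Glp. E2 (clone A4) carries an Eset2 mutation and was labelled as a control without 4-OHT, and E1E2 is that clone with 1 µM 4-OHT. E1E2 G9Gl (a clone that is itself named E2) was derived from A4 by mutating G9a and Glp, and 6KO2 (clone E2F4) from that clone by mutating Suv39h1 and Suv39h2. All 8 conditions carry the conditional Eset1 allele and an inducible Cre. The study's methods state that the lines with disrupted genes were given an inducible Cre construct with puromycin resistance again and were kept in puromycin. Those lines may thus differ from WT and E1 in Cre and in selection, and the part of this was not tested. Each mutant genotype is 1 clone, so the effect of a mutation and that of the clone cannot be told apart, and E1 differs from WT both in 4-OHT and in Eset1. The records conflict on 4-OHT, since the treatment field of all 24 libraries names it, and the split into libraries with and without it follows the sample titles, the genotype field and the study's methods. This bears on every WT and E2 value. The study's methods call the libraries of a line biological replicates, and the labels do not say whether they came from separate cultures, so p-values measure the spread between these libraries.

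ERVK elements are remnants of retroviruses that entered the mouse germline and multiplied there. An intact copy has an LTR at each end, which holds the promoter and the polyadenylation signal, around an internal region that can encode gag, pol and, in some families, env. MMERVK10C is a mouse ERVK family with coding copies. ETn elements, early transposons, are non-coding relatives of the MusD family that are known for their transcription in early embryos and for causing mutations by new insertions. In mouse cells many ERVs are recognised by KRAB zinc finger proteins, which bind Trim28, and Trim28 brings Eset1 to deposit H3K9me3, while G9a and Glp deposit H3K9me1 and H3K9me2 and the Suv39h enzymes deposit H3K9me3 mainly at pericentric heterochromatin.

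Each library held 24736829 to 37419071 counts, of which 19541909 to 31489070 lay on genes. Setdb1 transcripts, counted over all exons so that loss of the floxed exons shows only in part, lay between 1478 and 1612 normalized counts in WT, between 994.5 and 1092 in E1 and between 1018 and 1398 in the libraries labelled E2. The E2-labelled libraries were thus all below WT (log2 difference -0.31 ± 0.08 SE, adjusted p = 0.0026, edgeR) and did not differ from E1E2 beyond the spread (0.01 ± 0.08, adjusted p = 0.992, edgeR), so Setdb1 counts do not separate E2 from E1E2. The other 5 KMT genes carry frameshifts, which total counts do not read directly, but some of their counts moved (log2 differences from WT, edgeR). Setdb2 was called lower in E2 (-1.36), E1E2 (-1.43), E1E2 G9Gl (-1.55) and 6KO2 (-1.39), and stood at -0.90 in 6KO1. Suv39h1 was called lower in E1 S1S2 (-1.14) and 6KO1 (-1.73), with -0.81 in 6KO2. Ehmt2 and Ehmt1 were called lower in E1E2 G9Gl (-1.69 and -1.40) and 6KO1 (-1.32 and -1.05), with -0.56 and -0.94 in 6KO2. Suv39h2 did not follow its labels, with -0.96 in 6KO2, 0.14 in 6KO1 and 0.77 in E1 S1S2, where it is mutated, and a call lower in E1E2 G9Gl (-1.47), where the labels name no mutation of it. Its part in the steps that add Suv39h mutations was not tested. WT replicate 2 stood apart from WT replicates 1 and 3, with a chi-square per gene of 46.5 and 38.9, against 3.77 between replicates 1 and 3. Of 8 fibroblast markers, 7 had counts in all 24 libraries and Thy1 was at 0 in 4. The summed fibroblast markers ranged from 171000 to 215000 normalized counts in WT, from 96910 to 108800 in 6KO1, and from 141200 to 241800 in the other mutants. In 6KO1 the 3 epithelial markers summed to 419 to 442 against 30.9 to 47.2 in WT, the 2 immune markers to 481 to 544 against 88.6 to 104, and the 2 endothelial markers to 90.5 to 105.5 against 5.02 to 8.53. In the other mutants these sums lay between 94.1 and 304.5, between 52.9 and 146.7 and between 5.38 and 76.6. The epithelial sum was mostly Krt8 and the immune sum mostly Cd68, Epcam was at 0 in 2 libraries, Cdh1 in 1 and Ptprc in 14. The part of these markers in the results below was not tested, and in bulk samples fewer cells of a type and less RNA per cell cannot be told apart.

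Together the 20 elements took up a small part of the RNA in WT cells and a far larger one in every mutant. Their summed normalized count (counts scaled by the gene totals of each library) was 9109 ± 973 (SD, n = 3) in WT. In the lines without G9a and Glp it was 58.3 times as high in 6KO1, 35.9 times in E1E2 G9Gl and 19.75 times in 6KO2. In those that keep G9a and Glp the factor was 12.9 for E1 S1S2, 11.1 for E1, 9.60 for E1E2 and 8.55 for E2. All 21 mutant libraries lay above all 3 WT libraries, and the 6KO1 libraries, at 511958 to 544108, lay above those of every other condition. As a share of all counts in a library the elements made up 0.0303% ± 0.0046 (SD, n = 3) in WT and 1.8% ± 0.07 in 6KO1. As a share of all ERVK counts they made up 8.27% in WT, 30.4% in 6KO2 and between 35.7% and 46.8% in the other 6 mutants.

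MMERVK10C-int had the highest count of the 20 elements in each of the 24 libraries. It made up 36.6% ± 1.85 (SD, n = 3) of the counts of the 20 elements in WT, 77.2% ± 0.404 in E1, 80.0% ± 0.208 in 6KO1 and 50.6% ± 1.62 in 6KO2. A share of counts scales with the length and the copy number of an element, so it ranks counts and not levels. Without MMERVK10C-int the sum in E1E2 G9Gl was 20.3 times that in WT, and it was 18.4 times in 6KO1, 15.4 times in 6KO2, 3.997 times in E1 and 3.13 times in E1E2, so that E1E2 G9Gl and not 6KO1 held the highest sum.

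Against WT, 9 of the 20 elements were called higher in E1 S1S2, 7 in E2, 7 in E1 and 6 in E1E2, and none was called lower by edgeR in any mutant (nor by DESeq2, and at an unadjusted p under 0.05 only 1 was lower, in E2). A call needs a difference of at least 2-fold and an adjusted p of at most 0.01. Among all 1216 repeat elements tested, the shares called higher were 6.41% in E1 S1S2, 4.93% in E2, 4.61% in E1 and 5.51% in E1E2, and the shares called lower were 0.74%, 2.22%, 0.247% and 1.56%. In the lines without G9a and Glp, 20 of the 20 were called higher in 6KO1, 18 in 6KO2 and 18 in E1E2 G9Gl, where 32.7%, 22.4% and 41.4% of all elements were called higher and 2.63%, 2.06% and 2.06% lower. All 7 comparisons use the same 3 WT libraries. The median log2 difference of the 20 elements was 3.16 in 6KO1, 2.99 in 6KO2 and 3.45 in E1E2 G9Gl, against 0.75 in E1 S1S2, 0.38 in E2, 0.45 in E1 and 0.61 in E1E2. Over all repeat elements these medians were 0.56, 0.28, 0.78, 0.20, 0.11, 0.10 and 0.15 in the same order, so the background itself lay above 0 on the scale set by the gene rows. Relative to that shift the medians of the 20 elements were 2.60, 2.71 and 2.67 in the 3 lines without G9a and Glp, and 0.55, 0.27, 0.36 and 0.47 in the other 4 conditions. When factors came from the repeats alone, which put the median of all elements between -0.07 and 0.004, the counts of elements called higher were 18, 16, 16, 8, 7, 7 and 6 in that order. The shares of all repeat elements given above do not apply to these factors, so these counts have no background share beside them. Of the 250 other ERVK elements tested, 70.4% were called higher in E1E2 G9Gl, 59.6% in 6KO1, 43.2% in 6KO2 and 10% in E1.

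**Figure D1:**
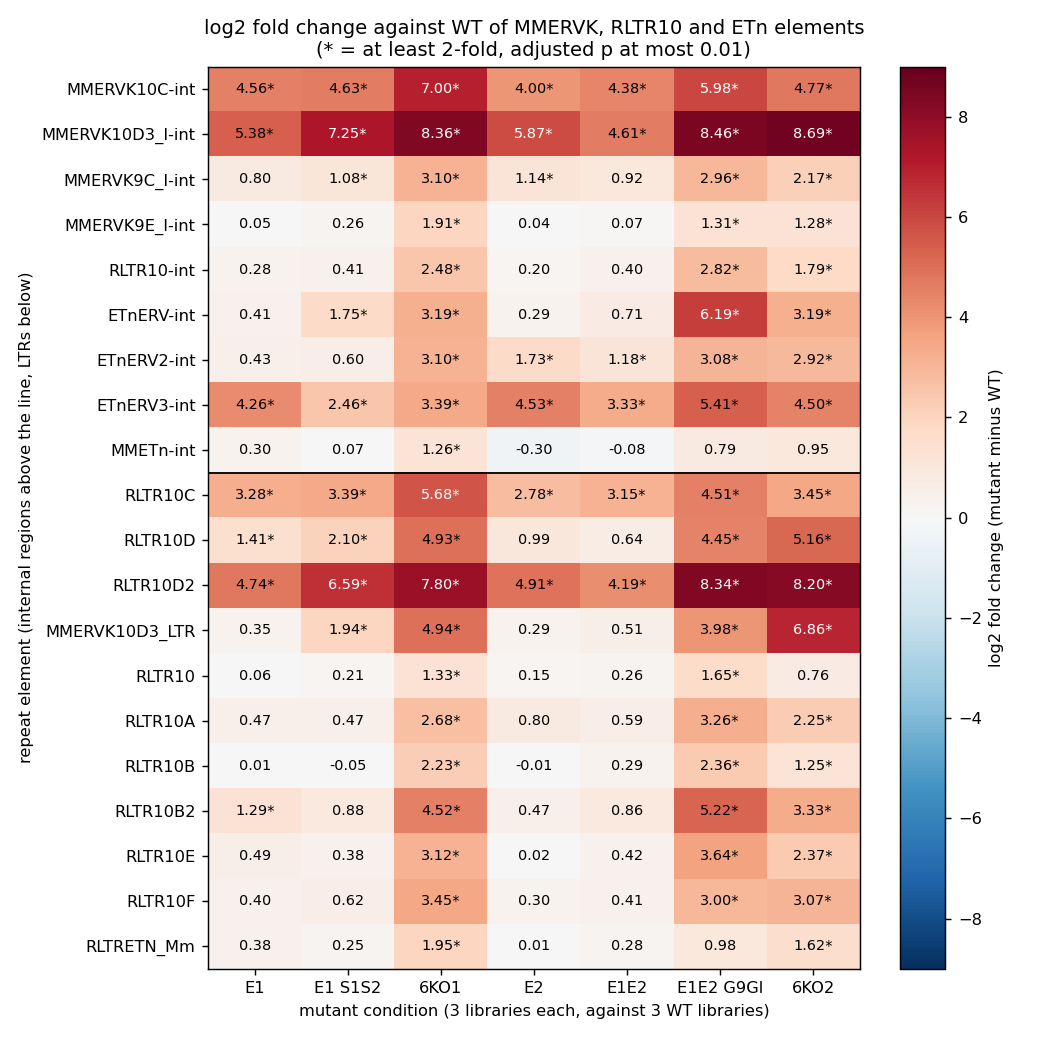
Log2 fold change of each of the 20 elements (rows) in each of the 7 mutant conditions against WT (columns), with 3 libraries per condition and an asterisk where the difference was called by edgeR. MMERVK10C-int, MMERVK10D3_I-int, ETnERV3-int, RLTR10C and RLTR10D2 are called in all 7 columns, while RLTR10A, RLTR10B, RLTR10E and RLTR10F lie between -0.01 and 0.80 in E1, E2 and E1E2 and between 2.23 and 3.64 in 6KO1 and E1E2 G9Gl.

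The elements called higher in every mutant were MMERVK10C-int, MMERVK10D3_I-int and ETnERV3-int among the internal regions and RLTR10C and RLTR10D2 among the LTRs. The normalized counts of MMERVK10C-int, the internal region of the coding MMERVK10C family, were 3450.4, 3095 and 3424 in WT, 76156, 81738 and 77049 in E1, 49076, 55111 and 55195 in E2 and 69227, 70677 and 68147 in E1E2. They were 78593, 86413 and 82225 in E1 S1S2, 408290, 431380 and 435640 in 6KO1, 90952, 90829 and 90986 in the 6KO2 libraries and 204160, 211200 and 213620 in those of E1E2 G9Gl. No mutant library came near the WT range, the E2 libraries were the lowest of the mutants, and the 6KO1 libraries were the highest. The fold over WT was 23.6 in E1 (log2 4.56 ± 0.10 SE, adjusted p = 1.24e-35, edgeR) and 128 in 6KO1 (log2 6.999 ± 0.12 SE, adjusted p = 2.44e-41, edgeR). The fold in 6KO2 was 27.4. The libraries of E1 and E1 S1S2 overlapped, and those of 6KO2 lay just above both.

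MMERVK10D3_I-int is the internal region of another MMERVK10 subfamily. Its normalized counts were 132, 110.5 and 116 in WT, 4680.3, 5221 and 5098 in E1, 6604, 6788 and 7588 in E2 and 2743, 2932 and 3103 in E1E2. They were 17646, 18723 and 18177 in E1 S1S2, 38216, 39499 and 40346 in 6KO1, 54157, 46895 and 46641 in the 6KO2 libraries and 42240, 42152 and 41992 in those of E1E2 G9Gl. No pair of the 8 conditions overlapped, E1E2 was the lowest of the mutants, and 6KO2 was the highest. The log2 difference from WT was 5.38 ± 0.13 (SE, adjusted p = 4.83e-35, edgeR) in E1, 7.25 ± 0.14 in E1 S1S2 and 8.69 ± 0.15 in 6KO2. By size of this difference the element stood at rank 1 of the 1216 repeat elements in 6KO2, at rank 2 in E1 S1S2 and at rank 3 in E1 and in 6KO1. Its rank was 5 in E2, 7 in E1E2 G9Gl and 9 in E1E2.

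ETnERV3-int, an internal region of an ETn-related family, had normalized counts of 294, 296 and 257 in WT, 4768, 5962 and 5504 in E1, 7178, 5523 and 6926 in E2 and 2569, 2975 and 2988 in E1E2. They were 1459, 1680.1 and 1529 in E1 S1S2, 2794, 2986 and 3123 in 6KO1, 7274, 5621 and 6259 in the 6KO2 libraries and 11832, 12350 and 11951 in those of E1E2 G9Gl. All mutant libraries were above WT, E1 S1S2 was the lowest mutant and E1E2 G9Gl the highest, and the ranges of E1, E2 and 6KO2 overlapped, as did those of E1E2 and 6KO1. The log2 difference from WT was 4.26 ± 0.13 (SE, adjusted p = 2.67e-30, edgeR) in E1 and 3.39 ± 0.13 in 6KO1. The 6KO1 libraries lay below those of E1 without overlap, and the difference between these conditions was not tested.

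RLTR10C, the LTR that flanks MMERVK10C, and RLTR10D2, another LTR of the RLTR10 group, moved with the MMERVK10 internal regions. RLTR10C had 679.9, 567 and 687 normalized counts in WT, 6123, 6563 and 6076 in E1, 6660.1, 6720.4 and 6880.4 in E1 S1S2 and 31735, 33327 and 34016 in 6KO1. In the other series it had 4251, 4528 and 4507 in E2, 5789.7, 5890.1 and 5540.5 in E1E2, 6979, 7186 and 7033 in the 6KO2 libraries and 13977, 14945 and 15227 in those of E1E2 G9Gl. The order of the condition means was that of MMERVK10C-int, with E2 lowest and 6KO1 highest among the mutants. RLTR10D2 was close to silent in WT, at 23.4, 22.8 and 25.1 normalized counts, and reached 634 to 638 in E1, 677 to 766 in E2 and 408 to 458 in E1E2. It reached 2186 to 2369 in E1 S1S2, 5100.4 to 5463 in 6KO1, 7562 to 7954 in E1E2 G9Gl and 6671 to 7529 in 6KO2, where it was 295-fold above WT (log2 8.20 ± 0.15 SE, adjusted p = 5.12e-40, edgeR). Here E1E2 was the lowest mutant, as for MMERVK10D3_I-int, and E1E2 G9Gl the highest.

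**Figure D2:**
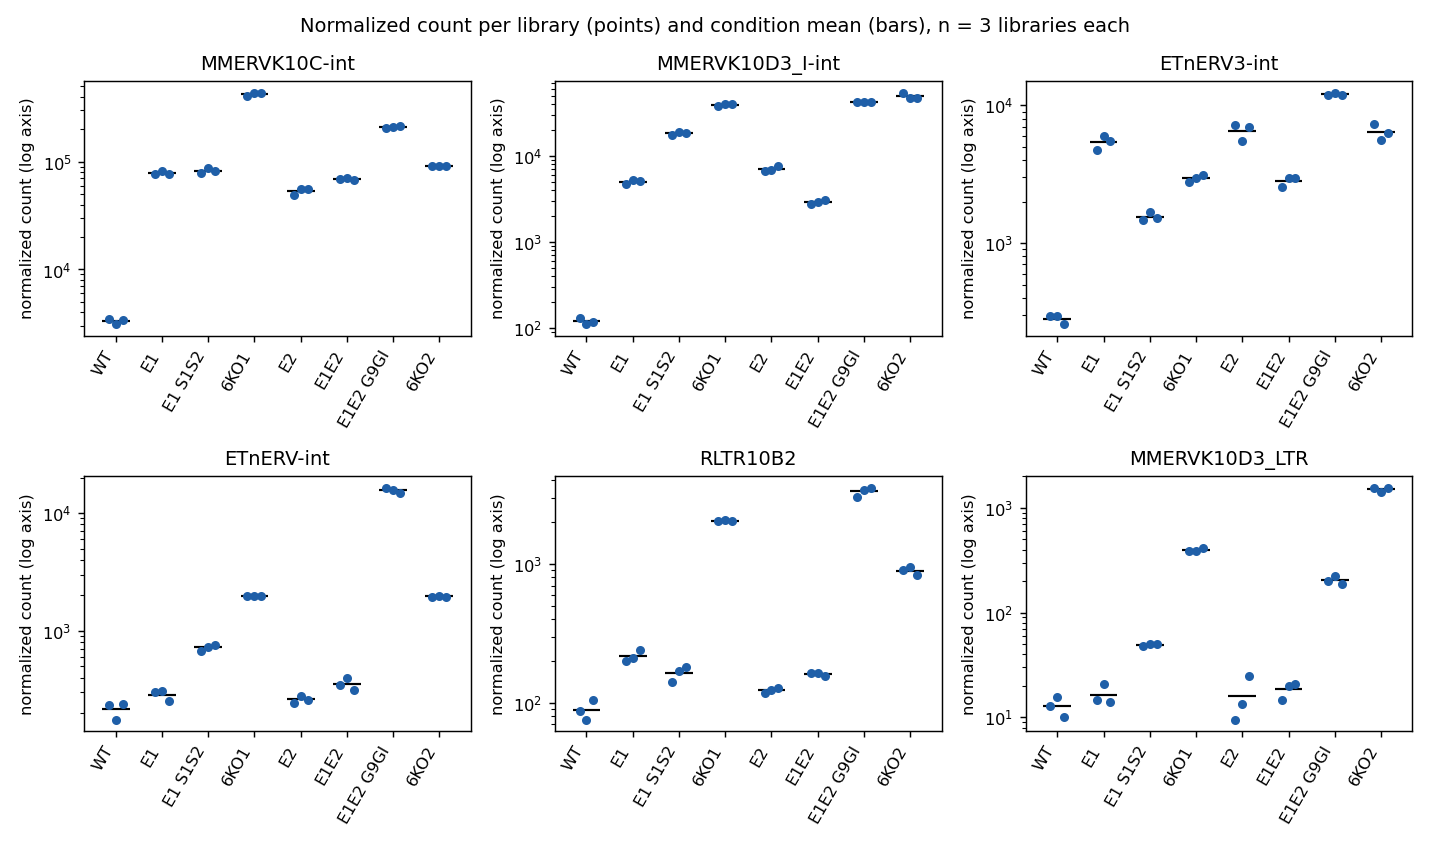
Normalized counts of 6 elements in the 24 libraries, on log axes, with 1 point per library and a bar at the mean of the 3 libraries of each condition. All but MMERVK10D3_LTR are above WT in every mutant library, and MMERVK10D3_LTR overlaps WT in E1, E2 and E1E2. The highest mean is that of 6KO1 for MMERVK10C-int and of 6KO2 for MMERVK10D3_I-int and MMERVK10D3_LTR. For ETnERV3-int, ETnERV-int and RLTR10B2 it is that of E1E2 G9Gl.

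The other internal regions with ETn in their names were not called in E1. ETnERV-int had 232, 176 and 238 normalized counts in WT, 299.9, 307 and 253 in E1, 246, 279.8 and 260.2 in E2 and 344, 399.7 and 316 in E1E2. It had 672, 735 and 760.0 in E1 S1S2, 1964, 1968 and 1969.6 in 6KO1, 1954, 1986 and 1938 in the 6KO2 libraries and 16376, 15750 and 14934 in those of E1E2 G9Gl. The E1E2 G9Gl libraries stood far above all others, the 6KO lines lay within the same narrow range, and E1, E2 and E1E2 were not called. The log2 difference from WT was 0.41 ± 0.12 (SE, adjusted p = 0.0159, edgeR) in E1, 3.19 ± 0.12 in both 6KO lines and 6.19 ± 0.14 (adjusted p = 7.25e-37, edgeR) in E1E2 G9Gl, a fold of 72.9. ETnERV2-int had 312, 307 and 356 in WT, 424, 508 and 386 in E1, 1088, 874 and 1275 in E2 and 700.4, 805 and 707 in E1E2, and 458, 535 and 483 in E1 S1S2. The E2-labelled libraries were called higher than WT (log2 1.73 ± 0.12 SE, adjusted p = 2.52e-17, edgeR), as were those of E1E2 (1.18 ± 0.12), whereas E1 was not (0.43 ± 0.12). In 6KO1, E1E2 G9Gl and 6KO2 it had 2680.5 to 2975, 2648 to 2872 and 2264 to 2622 normalized counts. The first and second of these ranges overlapped, and 6KO2 lay below both and above E2.

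MMETn-int, the internal region of the non-coding ETn elements, and its LTR RLTRETN_Mm were the elements not called in E1E2 G9Gl. MMETn-int had 737, 668 and 691 normalized counts in WT, 800.1, 920.0 and 855 in E1, 515, 564 and 620.2 in E2 and 646, 659.9 and 680.2 in E1E2. It had 678, 782 and 738 in E1 S1S2, 1714, 1636 and 1659 in 6KO1, 1422, 1219 and 1413 in the 6KO2 libraries and 1217, 1183 and 1234 in those of E1E2 G9Gl. The E2-labelled libraries were the lowest, all below WT, and 6KO1 was called higher (log2 1.26 ± 0.09 SE, adjusted p = 1.02e-16, edgeR) but not with factors from the repeats alone (0.63). E1E2 G9Gl (0.79) and 6KO2 (0.95) were under the 2-fold minimum, and the E1E2 G9Gl value turned to -0.06 on that repeat scale. RLTRETN_Mm had 218, 168 and 195 in WT and 218 to 298 in E1, 719, 764 and 759 in 6KO1, 629.9, 549.9 and 599 in the 6KO2 libraries and 408, 364 and 373 in those of E1E2 G9Gl. It was called higher in 6KO1 (1.95 ± 0.12 SE, adjusted p = 1.03e-19, edgeR) and 6KO2 (1.62 ± 0.12), while E1E2 G9Gl, at 0.98 ± 0.12, lay just under the 2-fold minimum and E1 overlapped WT. The E1E2 G9Gl value was called under RLE factors (1.01), gene totals without TMM (1.03) and DESeq2 (1.02), and was 0.14 on the repeat scale.

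The MMERVK9 and RLTR10 internal regions, of further ERVK families, were called higher in all 3 lines without G9a and Glp. MMERVK9C_I-int had 192, 142 and 185 normalized counts in the WT libraries, 254 to 387 in those of E1, 368 to 408 in E2, 286 to 349.9 in E1E2 and 342 to 391 in E1 S1S2. In the lines without G9a and Glp it had 1475, 1493 and 1465 (6KO1), 761, 782 and 784 (6KO2) and 1366, 1319 and 1346 (E1E2 G9Gl). All mutant libraries lay above WT, with log2 differences of 1.08 in E1 S1S2, 0.80 in E1, 1.14 in E2, 3.10 ± 0.12 (SE, adjusted p = 1.37e-26, edgeR) in 6KO1 and 2.17 ± 0.12 in 6KO2. The call in E1 S1S2 was lost without WT replicate 2 (0.95) and with factors from the repeats alone (0.87).

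MMERVK9E_I-int had 877, 622 and 843 normalized counts in the WT libraries, 736 to 851 in those of E1, 887 to 987 in E1 S1S2, 759 to 822 in E2 and 791 to 864 in E1E2. In the lines without G9a and Glp it had 3003, 2838 and 2920.1 (6KO1), 1908, 1853 and 1936 (6KO2) and 1988, 1962 and 1846 (E1E2 G9Gl). The ranges of E1, E2 and E1E2 overlapped WT, and the lines without G9a and Glp stood clear of them, with a log2 difference from WT of 1.91 ± 0.10 (SE, adjusted p = 7.56e-22, edgeR) in 6KO1. With factors from the repeats alone it was not called in E1E2 G9Gl (0.47) or 6KO2 (0.96). RLTR10-int had 1500.4, 1033 and 1352 in WT, 1435 to 1672 in E1, 1616 to 1778 in E1 S1S2, 1394 to 1546 in E2 and 1609.7 to 1752 in E1E2. In the lines without G9a and Glp it had 7188, 7226 and 7204 (6KO1), 4634, 4361 and 4463 (6KO2) and 9143, 9107 and 9185 (E1E2 G9Gl). E1E2 G9Gl was the highest (log2 2.82 ± 0.12 SE against WT, adjusted p = 5.29e-26, edgeR), and WT replicate 2 gave the lowest count of both elements.

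Of the 11 LTRs, all 11 were called higher in 6KO1, 10 in 6KO2 and 10 in E1E2 G9Gl, against 4 in E1 S1S2, 4 in E1, 2 in E2 and 2 in E1E2. Among all repeat elements the shares called higher were 32.7%, 22.4%, 41.4%, 6.41%, 4.61%, 4.93% and 5.51% in the same order. RLTR10C and RLTR10D2 are described above. RLTR10B2 had 87.4, 75.8 and 104 normalized counts in WT, 199, 210.2 and 241 in E1, 141 to 182 in E1 S1S2, 118 to 127 in E2 and 155 to 166 in E1E2. Without G9a and Glp it had 2024, 2069.9 and 2051 (6KO1), 905, 944 and 838 (6KO2) and 3061, 3392 and 3536 (E1E2 G9Gl). Every mutant library was above WT, but of the conditions with G9a and Glp only E1 was called (log2 1.29 ± 0.13 SE, adjusted p = 8.71e-12, edgeR). The difference in E1E2 G9Gl was 5.22 ± 0.12 (adjusted p = 3.1e-36, edgeR), a fold of 37.4.

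RLTR10D had 34.1, 25.6 and 25.1 normalized counts in the WT libraries, 66.8 to 84.9 in those of E1, 118 to 125 in E1 S1S2, 46.3 to 61.9 in E2 and 39.4 to 47.6 in E1E2. In the lines without G9a and Glp it had 819, 859 and 903 (6KO1), 1079.8, 1044 and 905 (6KO2) and 593, 657 and 596 (E1E2 G9Gl). This LTR was called in E1 (log2 1.41) and E1 S1S2 (2.10), lay at the 2-fold minimum in E2 (0.99), and was highest in 6KO2 (5.16 ± 0.14 SE, adjusted p = 9.87e-33, edgeR). The E2 value was called under RLE factors (1.001), gene totals without TMM (1.01), factors from genes and repeats together (1.005) and DESeq2 (1.005). It was 0.87, without a call, on the repeat scale. MMERVK10D3_LTR, the LTR named for the same subfamily as MMERVK10D3_I-int, had 12.8, 15.5 and 10.04 in WT, 14.7, 20.7 and 14.1 in E1, 9.52, 13.5 and 24.95 in E2 and 14.8, 19.9 and 20.7 in E1E2. It had 48.5, 49.8 and 50.4 in E1 S1S2, 390.4, 387 and 415 in 6KO1, 1552, 1419 and 1558 in the 6KO2 libraries and 201, 222 and 189 in those of E1E2 G9Gl. E1, E2 and E1E2 overlapped WT at these low counts, E1 S1S2 was called (log2 1.94 ± 0.23 SE, adjusted p = 3e-09, edgeR), and 6KO2 was 116-fold above WT (6.86 ± 0.17, adjusted p = 1.47e-34, edgeR).

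RLTR10A, RLTR10B, RLTR10E and RLTR10F shared a pattern without a call in E1, E1 S1S2, E2 or E1E2. RLTR10A had 126, 84.9 and 135 normalized counts in WT, 774, 679 and 754 in 6KO1, 604, 549 and 489 in the 6KO2 libraries and 1158, 1078 and 1066 in those of E1E2 G9Gl, and 138 to 203 in E1. RLTR10B had 153, 95.9 and 145 in WT, 572, 631 and 629 in 6KO1, 307, 327 and 295 in the 6KO2 libraries and 689, 658 and 667 in those of E1E2 G9Gl, and 114 to 157 in E1. In both, the 3 lines without G9a and Glp did not overlap each other and E1E2 G9Gl was the highest. RLTR10E had 31.97, 26.5 and 35.1 in WT, 291, 239 and 285 in 6KO1, 152, 147 and 184 in the 6KO2 libraries and 395, 345 and 426 in those of E1E2 G9Gl, and 43.1 to 44.4 in E1. RLTR10F had 36.2, 25.6 and 43.2 in WT, 409, 332 and 399 in 6KO1, 312, 265 and 299 in the 6KO2 libraries and 302, 253 and 282 in those of E1E2 G9Gl, and 36.05 to 52.3 in E1. In RLTR10E the 3 lines again did not overlap, with E1E2 G9Gl highest. In RLTR10F the 6KO1 libraries were the highest and those of E1E2 G9Gl and 6KO2 overlapped. Across the 4 LTRs the log2 difference from WT lay between 2.23 and 3.45 in 6KO1, between 2.36 and 3.64 in E1E2 G9Gl and between 1.25 and 3.07 in 6KO2. RLTR10 itself had 667, 440.1 and 665 in WT, 1429 to 1512 in 6KO1, 1794 to 1907 in E1E2 G9Gl and 969 to 1048 in 6KO2. It was called in 6KO1 (1.33) and E1E2 G9Gl (1.65) but not in 6KO2 (0.76), and both calls were lost when the factors came from the repeats (0.72 and 0.82).

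The steps that add G9a and Glp mutations, in 1 of them together with an Eset2 mutation, had the most calls. From E1E2 to E1E2 G9Gl, 18 of the 20 elements were called higher and none lower, where 33.6% of all repeat elements were called higher and 0.905% lower, and the median log2 difference was 2.25 for the 20 elements against 0.64 for all. ETnERV-int rose the most (5.47 ± 0.13 SE, adjusted p = 5.86e-35, edgeR), followed by RLTR10B2 (4.36 ± 0.11), RLTR10D2 (4.15 ± 0.11) and MMERVK10D3_I-int (3.85 ± 0.11). MMETn-int (0.87) and RLTRETN_Mm (0.70) were the exceptions, and with factors from the repeats alone MMERVK10C-int (0.90), MMERVK9E_I-int (0.54), RLTR10 (0.69) and RLTR10C (0.66) joined them. From E1 S1S2 to 6KO1, a step that adds Eset2, G9a and Glp mutations, 19 were called higher, where 23.8% of all elements were, and none lower, where 0.576% were. The largest rise was that of RLTR10B2 (3.65 ± 0.11 SE, adjusted p = 6.05e-31, edgeR), MMERVK10C-int rose by 2.37 ± 0.09, and ETnERV3-int (0.93 ± 0.12) was the element without a call. On the scale of the repeats 15 were called, as MMERVK10D3_I-int (0.71), RLTR10D2 (0.80), MMETn-int (0.78) and RLTR10 (0.72) lost theirs.

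The addition of Suv39h1 and Suv39h2 mutations gave few calls after Eset1 deletion and mostly falls after G9a and Glp mutation. From E1 to E1 S1S2, 4 elements were called higher (1.48% of all) and 1 lower (1.15% of all). The higher ones were MMERVK10D3_I-int (1.86 ± 0.10 SE, adjusted p = 1.5e-19, edgeR), RLTR10D2 (1.85 ± 0.10), MMERVK10D3_LTR (1.59 ± 0.22) and ETnERV-int (1.33 ± 0.12), and ETnERV3-int fell by 1.798 ± 0.12 on the log2 scale (adjusted p = 4.81e-17, edgeR). MMERVK10C-int did not move beyond its error (0.07 ± 0.09). From E1E2 G9Gl to 6KO2, 1 element was called higher (1.89% of all) and 8 lower (16.9% of all). ETnERV-int fell by 3.001 ± 0.12 (adjusted p = 3.57e-26, edgeR), RLTR10B2 by 1.89 ± 0.10 and MMERVK10C-int by 1.21 ± 0.09, whereas MMERVK10D3_LTR rose by 2.89 ± 0.12 (adjusted p = 7.96e-25, edgeR). The median of all repeat elements fell by 0.47 in this step, and with factors from the repeats alone only ETnERV-int (-2.49) and RLTR10B2 (-1.39) were called lower, and MMERVK10D3_LTR (3.39), RLTR10D (1.22) and RLTRETN_Mm (1.14) higher.

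**Figure D3:**
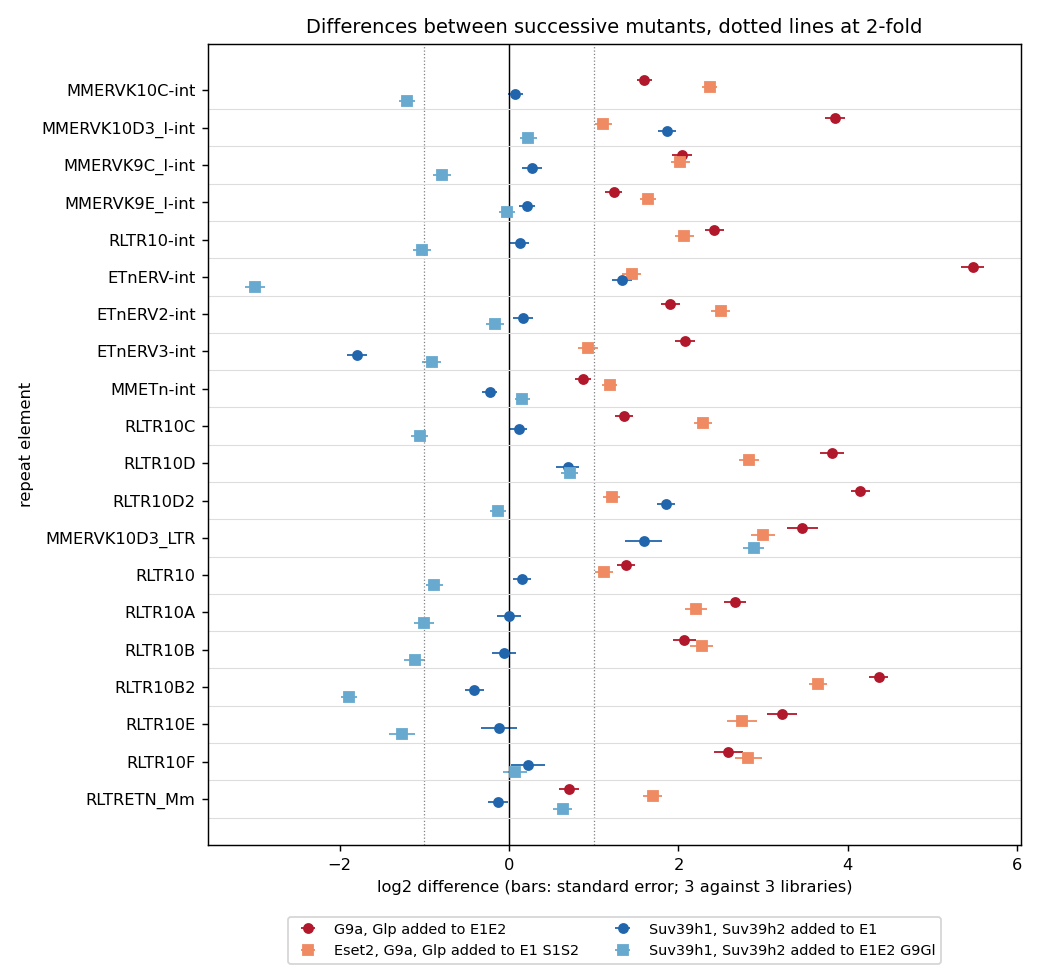
Log2 difference of each of the 20 elements between successive mutants, with bars for the standard error, in 4 steps of 3 libraries against 3. The steps that add G9a and Glp mutations (reds) lie to the right of 0 for every element, the Suv39h step after E1 (dark blue) lies near 0 for most, and the Suv39h step after E1E2 G9Gl (light blue) reaches from -3.001 for ETnERV-int to 2.89 for MMERVK10D3_LTR.

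The difference between these steps on the 2 backgrounds was tested itself. The Suv39h step differed for 13 of the 20 elements, 12 of them with a lower value after E1E2 G9Gl than after E1, where 19.1% of all repeat elements were called lower and 1.56% higher. For ETnERV-int the step was 1.33 after E1 and -3.001 after E1E2 G9Gl, a difference of -4.33 ± 0.16 (SE, adjusted p = 1.6e-26, edgeR). When the factors came from the repeats alone, 3 of the 20 were called lower and 4 higher, and 9 of the 12 lower values kept their sign without a call. The step that adds G9a and Glp was smaller after E1 S1S2 than after E1E2 for 4 elements, where 9.7% of all were lower and 3.29% higher. These were ETnERV-int (-4.03 ± 0.16), RLTR10D2 (-2.94 ± 0.14), MMERVK10D3_I-int (-2.73 ± 0.15) and ETnERV3-int (-1.15 ± 0.16). On the scale of the repeats ETnERV3-int lost its call (-0.86), and MMERVK10C-int (1.06), RLTR10C (1.22) and RLTRETN_Mm (1.28) were called in the opposite direction, with a larger step after E1 S1S2. The step from E1 S1S2 also adds the Eset2 mutation, so the steps do not mutate the same set of genes.

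Treatment with 4-OHT, which deletes Eset1, was compared in the WT line and in the Eset2-mutant clone. From WT to E1 7 elements were called higher, as given above. From the libraries labelled E2 to E1E2, none of the 20 was called higher by edgeR or DESeq2 (0.411% of all were, and 7 of the 20 had an unadjusted p under 0.05) and 2 were called lower (0.411% of all), MMERVK10D3_I-int by -1.26 ± 0.10 (SE, adjusted p = 1.18e-12, edgeR) and ETnERV3-int by -1.20 ± 0.12 (adjusted p = 6.4e-11, edgeR). MMERVK10C-int was 15.99-fold above WT in the E2-labelled libraries before any labelled 4-OHT treatment and 20.9-fold in E1E2. The 4-OHT effect itself was lower in the Eset2-mutant clone for 7 of the 20 elements and higher for none, where 4.28% of all repeat elements were called lower and 0.493% higher. The difference was -6.64 ± 0.16 (SE, adjusted p = 3.01e-34, edgeR) for MMERVK10D3_I-int, -5.46 ± 0.18 for ETnERV3-int and -4.17 ± 0.13 for MMERVK10C-int. Setdb1 did not differ between E2 and E1E2 either, as given above, and its part in these values was not tested.

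**Figure D4:**
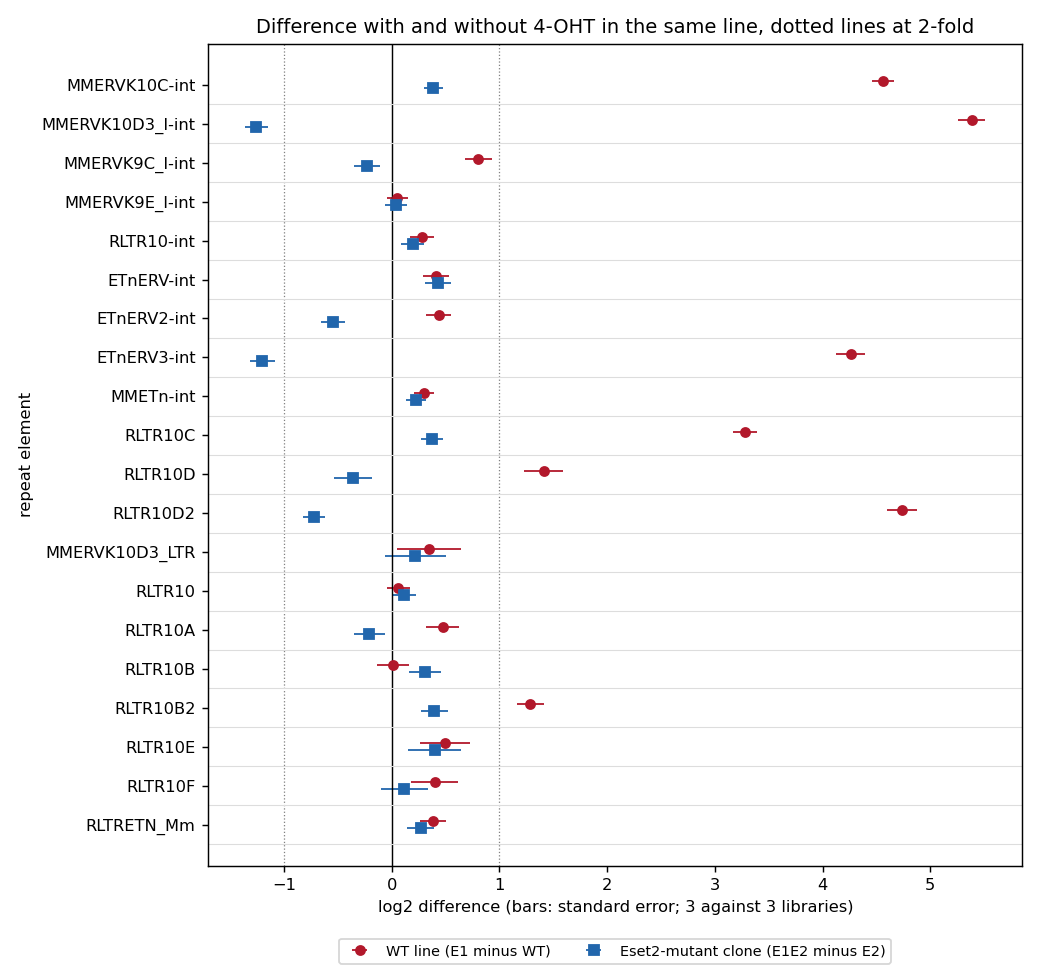
Log2 difference with and without 4-OHT for each of the 20 elements, in the WT line (E1 minus WT, circles) and in the Eset2-mutant clone (E1E2 minus E2, squares), with bars for the standard error and 3 libraries per condition. MMERVK10C-int, MMERVK10D3_I-int, ETnERV3-int, RLTR10C and RLTR10D2 are between 3.28 and 5.38 in the WT line and between -1.26 and 0.38 in the clone.

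Both E1 and E1E2 lack Eset1, and the addition of the Eset2 mutation was set against E1. None of the 20 elements was called by edgeR or by DESeq2 between E1E2 and E1 in either direction, where 1.07% of all repeat elements were called higher and 1.15% lower. Without the 2-fold minimum 1 was higher and 5 were lower at an adjusted p of at most 0.01, and 2 were higher and 6 lower at an unadjusted p under 0.05. The values ranged from -0.93 to 0.75 on the log2 scale, and MMERVK10C-int differed by -0.18 ± 0.09 (SE, adjusted p = 0.327, edgeR).

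The lines in which all 6 enzymes were mutated differed in several of the elements. From 6KO2 to 6KO1, 3 elements were called higher (5.02% of all) and 2 lower (1.32% of all). MMERVK10C-int (2.23 ± 0.09 SE, adjusted p = 2.96e-24, edgeR), RLTR10C (2.23 ± 0.10) and RLTR10B2 (1.19 ± 0.10) were higher in 6KO1, and MMERVK10D3_LTR (-1.93 ± 0.11) and ETnERV3-int (-1.10 ± 0.12) were lower. ETnERV-int did not differ beyond its error (0.01 ± 0.11). Against E1E2 G9Gl, 6KO1 was higher in 2 elements (3.87% of all) and lower in 2 (9.95% of all). RLTR10C (1.17 ± 0.10 SE, adjusted p = 2.12e-13, edgeR) and MMERVK10C-int (1.02 ± 0.09) were higher, the second close to the 2-fold minimum and without a call under RLE factors (0.998) or DESeq2 (0.995). ETnERV-int (-2.995 ± 0.12) and ETnERV3-int (-2.02 ± 0.12) were lower. MMERVK10D3_I-int was not called between any of the 3 lines, with 0.22 ± 0.10 (adjusted p = 0.0485, edgeR) from E1E2 G9Gl to 6KO2 and -0.10 ± 0.10 from E1E2 G9Gl to 6KO1. With factors from the repeats alone these values were 0.73 and 0.13, and that from 6KO2 to 6KO1 was -0.61, again without a call.

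The ratio of internal to LTR counts within a library compares the rise of an internal region with that of its LTR. It is free of library scaling, but its size depends on the lengths and copy numbers of both elements. MMERVK10C-int to RLTR10C had a ratio of 5.17 ± 0.252 (SD, n = 3) in WT and of 11.99 to 14.26 in the means of the 7 mutants, whose libraries all lay above those of WT. For MMERVK10D3_I-int to MMERVK10D3_LTR it was 9.68 ± 2.31 in WT, 311 ± 55.7 in E1, 367 ± 7.98 in E1 S1S2 and 501 ± 195 in E2. It was 161 ± 21.4 in E1E2 and 207.5 ± 16.3 in E1E2 G9Gl. The ratio for 6KO2 was 32.6 ± 2.5 and that for 6KO1 was 99.1 ± 2.54. The WT, E1, E2 and E1E2 ratios rest on normalized LTR counts of 24.95 or fewer in each library, and the E2 libraries ranged from 304 to 694. With RLTR10D2 as the LTR, a pair chosen after the values were seen, the ratio of MMERVK10D3_I-int was 5.04 ± 0.527 in WT and between 5.46 and 9.71 in the means of the mutants, of which E1E2 G9Gl overlapped WT. MMETn-int to RLTRETN_Mm moved the other way, from 3.63 ± 0.307 in WT to 2.24 ± 0.129 in 6KO1 and 2.28 ± 0.0739 in 6KO2.

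**Figure D5:**
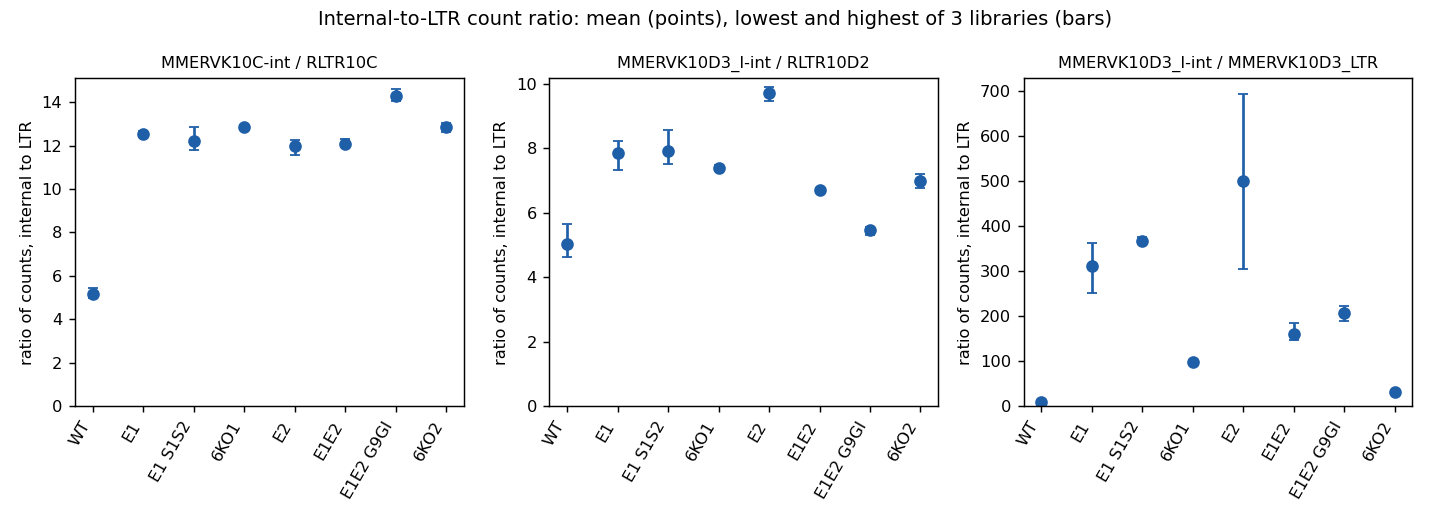
Ratio of internal to LTR counts in the 8 conditions for 3 pairs, with a point at the mean of 3 libraries and bars from the lowest to the highest. MMERVK10C-int to RLTR10C rises from 5.17 in WT to means between 11.99 and 14.26 in the mutants. MMERVK10D3_I-int to MMERVK10D3_LTR has its highest mean in E2, at 501, and its lowest among the mutants in 6KO2, at 32.6. The E2 range, from 304 to 694 on low LTR counts, overlaps those of E1 and E1 S1S2.

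Among all 1216 repeat elements ranked by their log2 difference from WT, 3 of the 20 elements stood in the top 10 in 6KO1 and in E1, and 2 in each of the other 5 mutants. The top 50 held 8 of them in E1 S1S2, 7 in both 6KO1 and E1E2 G9Gl, 6 in each of E1, E2 and 6KO2, and 5 in E1E2. MMERVK10C-int stood at rank 9 in 6KO1, 10 in E1, 32 in 6KO2 and 25 in E1E2 G9Gl. Elements with larger rises than MMERVK10D3_I-int were LTR109A2 and MER65D in 6KO1 and MuLV-int and RLTR6C_Mm in E1.

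A list of 25 genes that take part in silencing of ERVs was examined alongside, and all 25 were tested. Against WT, 4 were called higher in E1E2 G9Gl, 3 in 6KO1, 2 in each of 6KO2, E1E2, E2 and E1 S1S2, and 1 in E1, and 1 was called lower, in 6KO1. Of the 18513 genes tested, 16.8% were called higher in E1E2 G9Gl and 8.45% lower, 20.4% and 10.3% in 6KO1, 15.3% and 5.42% in 6KO2, 5.49% and 3.24% in E1E2, 2.91% and 3.23% in E2, 6.64% and 5.15% in E1 S1S2, and 2.27% and 2% in E1. Atf7ip, the partner that stabilises Eset1, was called higher in all 7 mutants, with a log2 difference of 1.73 ± 0.09 (SE, adjusted p = 2.7e-13, edgeR) in E1 and 2.11 ± 0.09 in 6KO1. Zfp809, a KRAB zinc finger protein that binds retroviral primer binding sites, was called in E1 S1S2 (1.30), E2 (1.53), E1E2 (1.48), E1E2 G9Gl (2.25 ± 0.11, adjusted p = 2.74e-14, edgeR) and 6KO2 (1.08). Morc3, which acts in ERV silencing with Daxx, was called in 6KO1 (1.19) and E1E2 G9Gl (1.37), and so was Fam208a (Tasor), a subunit of the HUSH complex (1.36 and 1.24). Pphln1, another HUSH subunit, was lower in 6KO1 (-1.04 ± 0.06 SE, adjusted p = 8.97e-14, edgeR). Trim28, the corepressor that recruits Eset1, was not called in any mutant, with its largest difference in E1E2 G9Gl (-0.70).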

How the data were processed

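Total RNA of MEFs was sequenced as stranded paired-end libraries in 8 conditions of 3. The authors trimmed reads with cutadapt 1.8.1, aligned them to GRCm38 with STAR 2.5.2b and counted them with TEtranscripts on genes and repeat elements. TEtranscripts divides multi-mapping reads between copies, also those of related elements. They deposited whole-number counts without normalization. Columns were matched to libraries by name (0 without a sample), 1 malformed entry was left out, and conditions and replicate numbers came from the labels. The members and gene lists were chosen with earlier results of these data known.

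Low counts were removed with filterByExpr by condition, which left 1216 repeat elements, all 20 members among them, and 18513 genes. TMM factors and totals came from the genes and were applied to repeats too, as the authors did. A normalized count is a count divided by the effective gene total of its library and multiplied by the mean of these totals (25325051). All 24 libraries entered 1 model with a coefficient for each condition, and edgeR's two-sided quasi-likelihood test (R 4.3.3, edgeR 4.0.16, limma 3.58.1) was used with Benjamini-Hochberg adjustment over all elements tested, in 7 comparisons against WT, 8 between mutants and 3 interaction tests. Elements were called at an adjusted p of 0.01 or less and an absolute log2 difference of 1 or more, and the SE is the log2 difference over the root of F. Sums over members got no test, since the members were chosen. An exact permutation test of 3 libraries against 3 cannot go below p = 0.1. Any member could be named, and genes of the silencing list were named when called in at least 1 mutant, with Trim28. The test was checked on simulated counts.

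Depth was 24736829 to 37419071 counts per library, and replicate libraries differed by more than counting error (chi-square per gene of 1.78 or more). The alternatives were RLE factors, gene totals without TMM, factors from repeats alone or with genes, DESeq2 1.42.0, no filter, the 6 libraries compared alone, the replicate number as a block, no fold minimum, and each library left out in turn. Figures were drawn with matplotlib 3.10.9. Sequences of the elements were not used here.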

Additional observations from a re-analysis of the deposited data

Results flagged for a closer look

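Each value here is a log2 difference between the effects of a like step on different backgrounds, tested with edgeR over all repeat elements, with the effect on each background beside it. For 4-OHT, the effect in the Eset2-mutant clone (E1E2 minus E2) was set against that in the WT line (E1 minus WT). The difference was -6.64 for MMERVK10D3_I-int (-1.26 against 5.38), -5.46 for ETnERV3-int (-1.20 against 4.26) and -5.46 for RLTR10D2 (-0.73 against 4.74). It was -4.17 for MMERVK10C-int (0.38 against 4.56) and -2.90 for RLTR10C (0.37 against 3.28). For RLTR10D it was -1.77 and for MMERVK9C_I-int -1.03, which lost its call with factors from the repeats alone (-0.94). In 5 of these 7 elements the 3 E2-labelled libraries, without 4-OHT by their label, already lay more than 2.7 log2 units above WT on average, and Setdb1 did not differ between E2 and E1E2.

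For the Suv39h1 and Suv39h2 mutations, the step after E1E2 G9Gl was set against the step after E1. The difference was -4.33 for ETnERV-int (-3.00 against 1.33), -1.99 for RLTR10D2 (-0.13 against 1.85) and -1.64 for MMERVK10D3_I-int (0.22 against 1.86). MMERVK10D3_LTR was the element with a larger rise after E1E2 G9Gl, with a difference of 1.30 (2.89 against 1.59). The others were -1.48 for RLTR10B2, -1.28 for MMERVK10C-int, -1.17 for RLTR10C, -1.15 for RLTR10-int and for RLTR10E, -1.07 for MMERVK9C_I-int, -1.06 for RLTR10B, -1.03 for RLTR10 and -1.01 for RLTR10A. The median of all repeat elements was shifted by -0.58 in the same test, and 9 of these elements, all but ETnERV-int, MMERVK10D3_I-int and RLTR10D2 among the lower ones, lost the call with factors from the repeats alone.

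For the G9a and Glp mutations, the step after E1 S1S2, which also adds Eset2, was set against the step after E1E2. The difference was -4.03 for ETnERV-int (1.45 against 5.47), -2.94 for RLTR10D2 (1.21 against 4.15), -2.73 for MMERVK10D3_I-int (1.11 against 3.85) and -1.15 for ETnERV3-int (0.93 against 2.08). The last lost its call with factors from the repeats alone (-0.86), and MMERVK10C-int (1.06), RLTR10C (1.22) and RLTRETN_Mm (1.28) were then called higher.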

How the results depend on the processing

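Each mutant genotype is 1 clone and TEtranscripts shares reads among copies, so clone, mutation and read sharing cannot be told apart. Counts of the 20 elements called against WT stayed within 1.5 times under every alternative but 1, and of 1664 single differences under other settings 1611 kept direction and side of the threshold, 36 lost a call (33 of them with factors from the repeats alone), 7 gained one and 10 changed sign. Depth limits MMERVK10D3_LTR, at 9.52 to 24.95 normalized counts in WT, E1, E2 and E1E2 libraries.

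When factors came from the repeats alone the summed count was 37.86 times WT in 6KO1, 15.59 in 6KO2, 19.95 in E1E2 G9Gl and 11.1 in E1 S1S2, and with gene totals and no TMM factor it was 65.86 in 6KO1. Without MMERVK10C-int it was 18.36 in 6KO1, 15.38 in 6KO2, 20.31 in E1E2 G9Gl, 6.116 in E1 S1S2, 3.134 in E1E2, 4.271 in E2 and 3.997 in E1. Leaving out 1 library gave 54.97 to 60.62 in 6KO1, 18.61 to 20.52 in 6KO2, 33.85 to 37.33 in E1E2 G9Gl, 12.19 to 13.44 in E1 S1S2, 9.051 to 9.981 in E1E2, 8.053 to 8.881 in E2 and 10.5 to 11.57 in E1.

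Factors from the repeats alone called 3 elements higher and 2 lower from E1E2 G9Gl to 6KO2, 4 higher in 6KO1 than in E1E2 G9Gl, 4 higher and 3 lower in the Suv39h interaction, and 3 higher in the G9a Glp interaction. With gene totals and no TMM factor, 6KO1 was higher than 6KO2 in 5 and lower in 1, and higher than E1E2 G9Gl in 4, whereas RLE factors and DESeq2 gave 1. Without a fold minimum, 11 were higher in E1E2 than in WT. From E1 to E1E2 it gave 1 higher and 5 lower, from E2 to E1E2 1 higher and 4 lower, and from E1E2 G9Gl to 6KO2 3 higher. For 6KO1 it gave 11 higher and 4 lower against 6KO2, and 8 higher and 8 lower against E1E2 G9Gl. Without E1 replicate 1 the count lower in E1E2 than in E1 was 1 in place of 0 (range 0 to 1). The shares of all repeat elements called, here and above, belong to the main setting only. Counts under another setting thus have no background share beside them, and whether they exceed it was not tested. The cause of these changes was not tested.

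Values without a call that changed sign with factors from the repeats alone were MMERVK9E_I-int (-0.047 in E1, -0.080 in E2, -0.066 in E1E2), RLTR10 (-0.036 in E1), RLTR10B (-0.090 in E1), RLTR10E (-0.12 in E2), RLTRETN_Mm (-0.12 in E2) and MMETn-int (-0.16 in E1 S1S2, -0.060 in E1E2 G9Gl in place of 0.79), and RLTR10B changed with gene totals (0.041 in E1 S1S2). Of 1212 differences with 1 library left out, 1183 kept direction and call, 3 lost a call, 7 gained one and 19 changed sign. Those that changed sign ranged from -0.088 to 0.14 for MMERVK9E_I-int, from -0.12 to 0.16 for RLTR10 and from -0.18 to 0.14 for RLTR10B in E1, and from -0.24 to 0.079 for RLTR10B in E1 S1S2. In E2 the ranges were -0.13 to 0.52 for MMERVK10D3_LTR, -0.11 to 0.13 for MMERVK9E_I-int, -0.029 to 0.24 for RLTR10, -0.21 to 0.11 for RLTR10B, -0.35 to 0.38 for RLTR10E and -0.089 to 0.10 for RLTRETN_Mm, and in E1E2 they were -0.067 to 0.17 for MMERVK9E_I-int. Calls lost were MMERVK9C_I-int in E1 S1S2 without WT replicate 2 (0.95) and RLTR10A from E1E2 G9Gl to 6KO2 without E1E2 G9Gl replicate 1 (-0.97) or 6KO2 replicate 3 (-0.93).

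Same-numbered libraries did not deviate together: in 0 of 15 comparisons were all 3 correlations over 0.1, and they ranged from -0.27 to 0.23. With the replicate number as a block, 226 of 226 differences kept their call, and the counts called higher were again 7 in E1 and 20 in 6KO1.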

Other observations

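The elements with ETn or ETN in their names are ETnERV-int, ETnERV2-int, ETnERV3-int, MMETn-int and RLTRETN_Mm. They had a summed normalized count of 1715 ± 92 (SD, n = 3) in WT. The sum was 7248 ± 732 in E1, 8645 ± 1060 in E2 and 4831 ± 293 in E1E2. It was 3734 ± 246 in E1 S1S2, 10136 ± 73.6 in 6KO1, 12746 ± 1070 in 6KO2 and 32082 ± 752 in E1E2 G9Gl, where it was 18.7 times WT. All mutant libraries lay above WT, E1 S1S2 was the lowest mutant, and E1E2 G9Gl stood apart from the others. The largest means in E1E2 G9Gl were those of ETnERV-int (15687) and ETnERV3-int (12044). MMETn-int and RLTRETN_Mm, the non-coding ETn elements and their LTR, were not called there. Internal regions made up 79.3% ± 1.19 of the counts of the 20 elements in WT and between 88.6% and 91.7% in the means of the mutants.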
